A study of Mus musculus with 72 samples.

Results

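In the suprachiasmatic nucleus (SCN), the hypothalamic clock that sets daily rhythms in mammals, 5 genes were followed in 72 RNA-seq libraries. They were chosen by name as 2 cold-inducible RNA-binding protein genes, Cirbp and Rbm3, and 3 CDC-like kinase genes, Clk1, Clk2 and Clk4, out of 24883 rows in each table. All 5 were found by symbol, none was at 0 in any library, and all 5 passed the filter on low values used for testing. The fourth kinase of the family, Clk3, is no member and is shown beside them. The members were chosen with their daily pattern known, so their rhythm within a group is a description here, with no test. Differences of rhythm between groups were tested, but the same choice enters them.

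The 4 groups had 18 libraries each, 3 at each of 6 time points set 4 h apart. All mice were male C57BL/6, 8 weeks old, and were kept alone for 1 week under their light schedule and then for 2 weeks on the diet. Ctrl LD and -Trp LD mice had a daily light-dark cycle (time given as ZT), and Ctrl DD and -Trp DD mice had constant darkness (time given as CT). The Ctrl diet was matched in nitrogen to the -Trp diet, from which tryptophan was left out. Libraries were made from SCN mRNA, enriched with oligo dT, with a stranded kit, and the deposited unit is FPKM, fragments per length of transcript and sequencing depth. The question behind the design is how dietary tryptophan and light shape the SCN clock. Nothing in the sources used here records a body temperature or a tissue temperature.

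Cirbp and Rbm3 encode small RNA-binding proteins whose RNA rises when cells are cooled by a few degrees and falls when they are warmed, the reverse of heat shock genes. Body temperature has a daily rhythm in mice, and the RNA of both genes is known to follow temperature cycles. The CLK kinases phosphorylate serine- and arginine-rich (SR) splicing factors. They are known to be more active at slightly lower temperature, and part of the CLK1 and CLK4 transcript pool is kept in the nucleus with introns retained.

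The deposited column names do not match those of the supplementary FPKM table of the study. Of 36 columns of that table, 36 equalled, in 100% of the genes compared, the deposited column 12 places further on, and 0 equalled the column of the same name. The order of that table is used here. The other 36 libraries, all on the -Trp diet, were placed by continuing the same shift. Results with the columns as named differ strongly and are given at the end. The sum of FPKM over all genes was 403066 or more in all LD libraries and 353587 or less in all DD libraries except -Trp DD CT4 replicate 2 (411944), so light and this range cannot be told apart. Markers of the SCN were above 0 in every library (12 of 12), but Six6, a transcription factor of the SCN, was at 0.0558 FPKM in Ctrl DD CT12 replicate 1 and 0.0822 in -Trp LD ZT20 replicate 3, against a median of 2.34. The summed SCN markers were 55.2 and 65.5 FPKM in these libraries and at least 173 in the others. The -Trp DD CT4 library, which has the FPKM range of LD, is the third that stands apart. In whole-tissue RNA, fewer cells of a type and less RNA per cell cannot be told apart.

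In the mouse genome (GRCm38, GENCODE release M21), Cirbp lies at chr10:80165985-80172786 on the plus strand and Rbm3 at chrX:8138975-8145880 on the minus strand. Clk1 is at chr1:58410189-58424066 (minus), Clk2 at chr3:89164795-89176921 (plus), Clk4 at chr11:51261730-51281766 (plus) and Clk3 at chr9:57750624-57765860 (minus). Of the annotated transcripts, 7 of 13 of Clk1 and 7 of 14 of Clk4 are of the retained-intron class, against 4 of 11 of Clk2, 4 of 7 of Cirbp and 2 of 11 of Rbm3. FPKM per gene does not separate these transcripts. Rbm3 overlaps the antisense gene Rbm3os and has a processed pseudogene, Clk4 overlaps BC049762 on the other strand and Clk3 overlaps Edc3, and the use of strand in the counting is not given in the sources used here.

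The 250 bases before a RefSeq transcript start (GRCm38.p6) are shown for Cirbp and Clk4 because each holds a known response element, the first named for mild cold. RefSeq sequences matched 3 of the 5 members, Cirbp, Clk2 and Clk4, so Rbm3 and Clk1 were not searched. Both windows lie inside the gene spans given above, downstream of the first base of the GENCODE gene. RefSeq gives a second start for Cirbp, and its window (chr10:80167921-80168170) holds none of the 4 motifs searched. Capitals mark TCCCCGCC, a mild cold response element, in Cirbp (chr10:80167589-80167838, plus strand) and TGACGTCA, the cAMP response element, in Clk4 (chr11:51262864-51263113, plus strand).
Cirbp: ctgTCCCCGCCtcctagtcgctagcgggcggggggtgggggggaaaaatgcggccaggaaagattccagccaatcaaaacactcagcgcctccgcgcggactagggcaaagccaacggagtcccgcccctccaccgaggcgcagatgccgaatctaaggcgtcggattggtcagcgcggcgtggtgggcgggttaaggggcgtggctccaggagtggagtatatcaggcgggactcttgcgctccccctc
Clk4: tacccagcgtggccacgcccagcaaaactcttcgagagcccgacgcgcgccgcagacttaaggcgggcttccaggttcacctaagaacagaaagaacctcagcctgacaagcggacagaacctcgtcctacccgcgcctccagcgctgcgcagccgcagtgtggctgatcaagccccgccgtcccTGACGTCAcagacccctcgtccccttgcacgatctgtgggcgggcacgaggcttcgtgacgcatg
The first of these elements begins 247 bases before the first of these starts of Cirbp and occurs, on either strand, in 4.64% of all 32851 promoter windows of this length. The cAMP response element begins 65 bases before that start of Clk4 and occurs in 1.55%. The E-box CACGTG occurs 159 bases before the start of Clk2 and in 6.02% of windows. GAANNTTC, a pair of heat shock element half-sites, was in none of the windows of Cirbp, Clk2, Clk4 and Clk3 and in 6.69% of all. A match is a run of letters and no measure of binding.

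In Ctrl LD, Cirbp was lowest at lights-on and highest 12 h later. It was at 60.6, 82.0 and 69.6 FPKM at ZT0 and at 150.8, 135.0 and 139.2 FPKM at ZT12. All 3 libraries at ZT12 lay above all 3 at ZT0, as 27.8% of expressed genes did in either direction between these times. The means were 70.7 ± 10.7 at ZT0, 107 ± 18.3 at ZT4, 132 ± 8.96 at ZT8, 142 ± 8.20 at ZT12, 103 ± 8.73 at ZT16 and 89.8 ± 7.41 at ZT20 (SD, n = 3 each), a ratio of 2.004 between ZT12 and ZT0. A cosine of 24 h fitted to log2(FPKM + 0.5) had an amplitude of 0.45 ± 0.06 (SE) with its peak at 10.5 h.

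In -Trp LD, Cirbp followed the same course with values at ZT4 nearer to its peak. It was at 99.7, 66.4 and 76.0 FPKM at ZT0, at 125.9, 142.0 and 146.7 at ZT4 and at 76.5, 75.8 and 51.0 at ZT20. The last of these is the library with little Six6. The highest mean was 148 ± 12.1 at ZT12 and the lowest 67.8 ± 14.5 at ZT20 (SD, n = 3), a ratio of 2.18. The fitted amplitude was 0.61 ± 0.06 (SE) with a peak at 8.81 h.

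Rbm3 had the larger swing in Ctrl LD. It was at 43.2, 43.0 and 39.7 FPKM at ZT0, still at 44.8, 36.7 and 51.8 at ZT4, and at 113.0, 96.0 and 104.6 at ZT12. The ZT12 libraries were all above those of ZT0 and ZT4, as 27.8% and 20.9% of expressed genes were separated in either direction, and the means of ZT12 and ZT0 had a ratio of 2.49. At ZT20 the values were 64.7, 98.2 and 58.6, and the library at 98.2 also has the second highest Clk4 value of LD. The fitted amplitude was 0.63 ± 0.09 (SE) with a peak at 13.0 h, later than that of Cirbp.

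In -Trp LD, Rbm3 was at 44.7, 31.8 and 36.5 FPKM at ZT0, at 60.5, 66.3 and 62.5 at ZT4, at 104.0, 73.8 and 99.7 at ZT12 and at 46.0, 40.3 and 45.1 at ZT20. All 3 values at ZT4 lay above the 3 values of Ctrl LD at ZT4, and all 3 at ZT20 lay below those of Ctrl LD at ZT20. Between the diets, 10.8% of expressed genes were separated in this way at ZT4 and 9.8% at ZT20, in either direction. The means of ZT12 and ZT0 had a ratio of 2.45, and the fitted amplitude was 0.65 ± 0.06 (SE) with a peak at 10.7 h.

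In constant darkness both curves were flatter by the fitted amplitude, with a wide spread at single time points. Cirbp in Ctrl DD was at 55.8, 65.6 and 83.6 FPKM at CT0 and at 119.2, 109.6 and 108.4 at CT8, but at 54.5, 102.2 and 68.1 at CT12. The first of these CT12 values is from the library with almost no Six6, and the library at 68.1 is not 1 of the 3 that stand apart. From CT16 to CT20 Cirbp did not return to its CT0 level, with 103.6, 110.5 and 109.7 at CT20. The fitted log2 amplitude was 0.06 ± 0.11 (SE), although the highest and lowest means had a ratio of 1.64.

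In -Trp DD, Cirbp was at 74.1, 82.1 and 85.8 FPKM at CT0 and at 105.3, 111.1 and 119.3 at CT16, where its mean was highest, with a ratio of 1.39. The fitted amplitude was 0.17 ± 0.07 (SE). Single libraries departed from their time point, with 62.8 at CT8 beside 108.4 and 98.5, and 65.7 at CT20 beside 103.7 and 83.5.

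Rbm3 had a larger ratio than Cirbp in darkness too. In Ctrl DD it was at 29.6, 28.8 and 44.8 FPKM at CT0 and at 88.5, 84.6 and 63.1 at CT8, a ratio of the means of 2.29. In -Trp DD it was at 42.8, 36.4 and 39.7 at CT0 and at 71.2, 75.1 and 93.8 at CT16, a ratio of 2.02. The fitted amplitudes were 0.25 ± 0.15 and 0.31 ± 0.11 (SE). The 6 DD libraries at CT0 lay between 28.8 and 44.8, close to the 31.8 to 44.7 of the 6 LD libraries at ZT0.

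**Figure D1:**
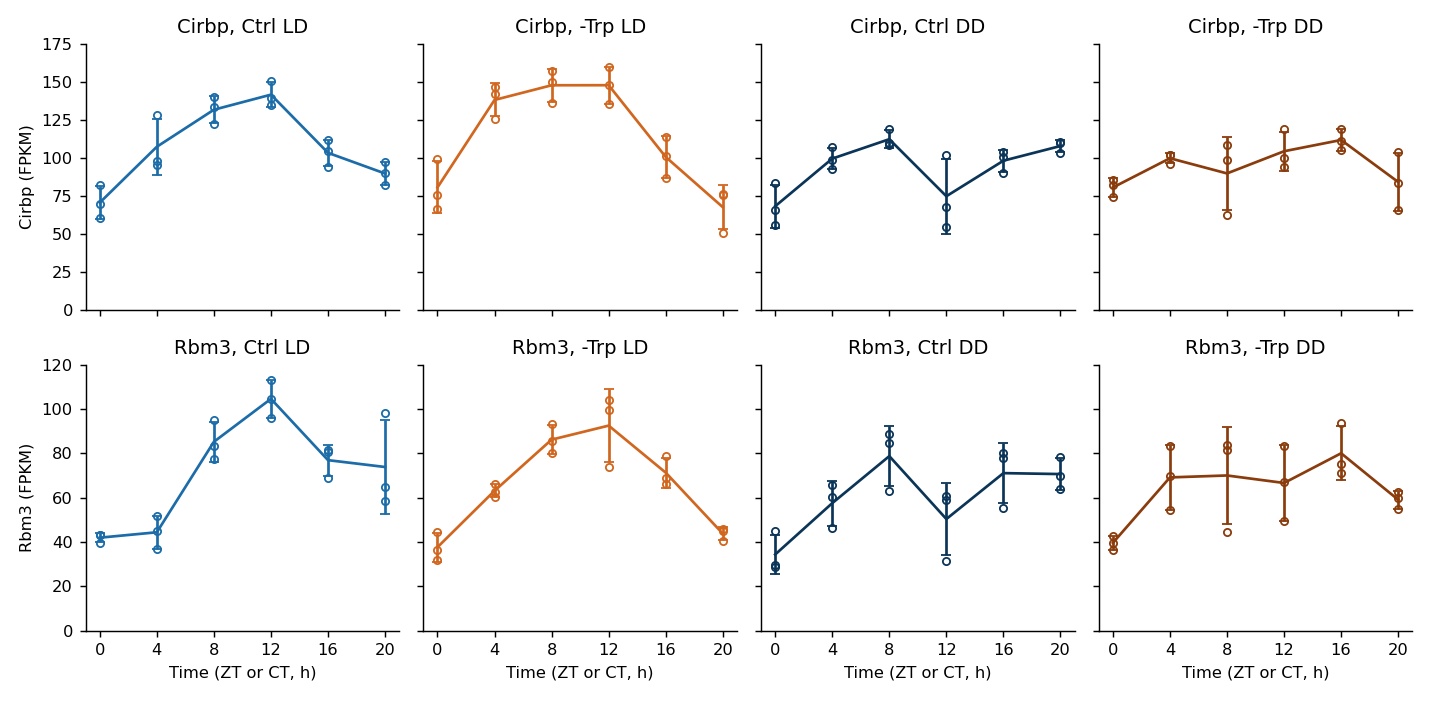
Cirbp (upper row) and Rbm3 (lower row) in FPKM against time in h for the 4 groups, with open points for the 3 libraries of a time point and lines joining the means ± SD. Both genes climb from 0 to 12 h in the LD panels, and the DD panels show flatter means with some libraries far from others of their time point. Cirbp in -Trp DD at 8 h was at 62.8 FPKM in 1 library beside 108.4 and 98.5. In Ctrl DD at 12 h, Cirbp was at 54.5, 102.2 and 68.1 FPKM.

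Rhythms of 24 h were called by JTK_CYCLE, a rank test, at p under 0.05, the rule of the study. Cirbp and Rbm3 were called in Ctrl LD, where 7.11% of all rows were, and in -Trp LD, where 7.42% were. In Ctrl DD (4.92% of rows) only Clk2 of the 5 members was called, and in -Trp DD (1.42%) none was. With the columns as named, 37.8%, 2.48%, 27.6% and 6.68% of rows were called, in the order just given. Since the members were chosen for this pattern, nothing is read from these counts. Clk1 and Clk4 were called in none of the 4 groups. Their fitted log2 amplitudes were at most 0.16, and the Clk2 mean in Ctrl DD ranged only from 6.87 ± 0.507 FPKM at CT0 to 7.70 ± 0.339 at CT20 (SD, n = 3).

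Whether the rhythm itself differed between diets or light schedules was tested by limma, as the difference in the cosine and sine terms over 36 libraries, with Benjamini-Hochberg adjustment over all genes. For the diets in LD, Cirbp differed by a vector of length 0.28 on the log2 scale and Rbm3 by 0.38. Their unadjusted p-values from limma were 0.0113 and 0.00626, and the adjusted p was 0.9997 for both (0 of 14148 genes, 0%, passed, and 454 had an unadjusted p under 0.05). The difference in time course of both genes between the diets thus did not pass the test over all genes. In LD the 3 kinases and Clk3 also had an adjusted p of 0.9997 by limma. For the diets in DD the adjusted p-values from limma of the 5 members were between 0.767 and 0.990, with 0.0344% of genes called. Clk3 was at 0.939 in DD.

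Between the light schedules, Cirbp had the largest difference of rhythm among the members. It was 0.55 on the -Trp diet, with an adjusted p of 0.0509 from limma, which did not pass (0.0277% of genes called). On the Ctrl diet it was 0.40, with an adjusted p of 0.235 (0.0832% of genes called). The members were chosen with their daily pattern known, and that pattern enters these differences. Their p-values for rhythm, here and between the diets, are thus a description and no independent support. Without the 3 libraries that stand apart (the pair with little Six6 and -Trp DD CT4 replicate 2) the adjusted p-values were 0.118 and 0.246. With 1 library left out they ranged from 0.0261 to 0.116 on the -Trp diet, and 7 of 36 such fits passed. For Rbm3 the differences were 0.39 and 0.38 with adjusted p-values of 0.465 and 0.460, and none of the kinases had a difference above 0.16. Clk3 was at 0.07 on the -Trp diet and 0.01 on the Ctrl diet (adjusted p = 0.886 and 0.989 by limma).

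Averaged over the day, Cirbp and Rbm3 did not pass the test in any comparison of level. Over 18 libraries, Cirbp had its lowest, median and highest value at 60.6, 101.3 and 150.8 FPKM in Ctrl LD, at 51.0, 120.1 and 160.0 in -Trp LD, at 54.5, 101.5 and 119.2 in Ctrl DD and at 62.8, 99.4 and 119.3 in -Trp DD. Its medians lay between 99.4 and 120.1, and its highest values were lower in darkness. Rbm3 had 36.7, 73.0 and 113.0 in Ctrl LD and 31.8, 66.2 and 104.0 in -Trp LD. In darkness the values were 28.8, 61.9 and 88.5 (Ctrl DD) and 36.4, 65.0 and 93.8 (-Trp DD). The log2 differences of the 2 genes lay between -0.12 and 0.11 over the 4 comparisons, with standard errors of 0.07 to 0.11 and adjusted p-values from limma of 0.267 to 0.738. On FPKM as deposited, without scaling between libraries, Cirbp was lower in DD by a log2 difference of -0.19 on the Ctrl diet (adjusted p = 0.0485 by limma) and -0.20 on the -Trp diet (adjusted p = 0.0496), in fits where the median of all genes was itself at -0.11 on each diet.

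The 3 kinase genes were higher in constant darkness than in LD on both diets. On each diet 3 of 5 members passed the test, while 78.8% of 14427 genes did on the Ctrl diet and 79.6% of 14415 on the -Trp diet, so that the count is no larger than that of other genes and only the sizes and the order are described. In the upward direction 37.8% and 37.9% of all genes passed. With the columns taken as named, 0 of 5 passed on the Ctrl diet, while the 3 kinases on the -Trp diet turned to the opposite direction, with Clk1 at -0.71. Some markers of other cells moved with the schedule as well, in sums of FPKM as deposited, without scaling between libraries. The summed FPKM of 5 oligodendrocyte markers had medians of 2118 and 1961 in Ctrl LD and -Trp LD and of 1331 and 1037 in Ctrl DD and -Trp DD, with ranges of 1663 to 2974, 1452 to 2855, 950 to 2980 and 767 to 1958. The 5 markers of neighbouring hypothalamus had medians of 1764 and 1355 in LD and 705 and 857 in DD, with ranges of 1115 to 2304, 259 to 2707, 25.4 to 951 and 541 to 1462. All 10 of these markers were above 0 in every library. General neuron markers were also lower in DD, with medians of 1033 and 1072 in LD and 713 and 669 in DD (Ctrl and -Trp). Astrocyte markers changed little, with 406 and 374 in LD and 375 and 365 in DD. Blood markers had 498 and 381 in LD and 465 and 757 in DD. The part of all these markers in the results was not tested.

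Clk1, a kinase of SR proteins, was the most abundant of the 3. Its lowest, median and highest values were 24.03, 28.6 and 55.1 FPKM in Ctrl LD and 20.6, 27.1 and 46.9 in -Trp LD. In darkness the values were 40.6, 45.6 and 58.3 (Ctrl DD) and 40.8, 52.5 and 71.9 (-Trp DD). In LD, 3 of 18 libraries on the Ctrl diet and 1 of 18 on the -Trp diet reached the lowest DD value of their diet. Full separation of the 18 LD from the 18 DD libraries was seen in 22.1% of genes for the Ctrl diet and 15.7% for the -Trp diet. The log2 difference of DD from LD was 0.63 ± 0.09 (SE, adjusted p = 1.62e-07 by limma) on the Ctrl diet and 0.99 ± 0.10 (adjusted p = 5.52e-11) on the -Trp diet, 1.55-fold and 1.98-fold. In size these stood above 78.5% and 93.8% of all genes tested.

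Clk4, its close relative, was at lower levels with the same order. It had 11.6, 14.4 and 25.8 FPKM (lowest, median, highest) in Ctrl LD and 9.25, 13.6 and 21.5 in -Trp LD. In darkness the values were 17.6, 21.4 and 25.8 (Ctrl DD) and 17.7, 23.4 and 27.7 (-Trp DD). The groups overlapped in 4 Ctrl LD and 3 -Trp LD libraries. The log2 difference was 0.55 ± 0.09 (SE, adjusted p = 1.38e-06 by limma) on the Ctrl diet and 0.79 ± 0.08 (adjusted p = 9.32e-11) on the -Trp diet.

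Clk2 was the least abundant and differed least. It had 4.94, 5.82 and 8.75 FPKM in Ctrl LD and 5.34, 6.03 and 8.88 in -Trp LD. In darkness the values were 6.39, 7.21 and 8.32 (Ctrl DD) and 5.87, 7.21 and 9.96 (-Trp DD). On the -Trp diet, 13 of 18 LD libraries reached the lowest DD value, so the groups overlapped widely. The log2 differences were 0.33 ± 0.06 (SE, adjusted p = 1.31e-05 by limma) and 0.29 ± 0.06 (adjusted p = 2.71e-05), which is close to the middle of all genes tested (larger than 48.2% and 43.1% of them).

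Clk3, the remaining kinase of the family, went the other way. Its medians were 22.4 and 22.6 FPKM in Ctrl LD and -Trp LD and 19.0 in both DD groups, with log2 differences of -0.16 ± 0.04 (SE, adjusted p = 0.00139 by limma) and -0.14 ± 0.05 (adjusted p = 0.00610). The share of all genes that fell was 41% (Ctrl diet) and 41.7% (-Trp diet). All 3 member kinases kept their direction and their call when any 1 library was left out, and also without the 3 libraries that stand apart, where Clk1 was at 0.62 and 1.002.

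**Figure D2:**
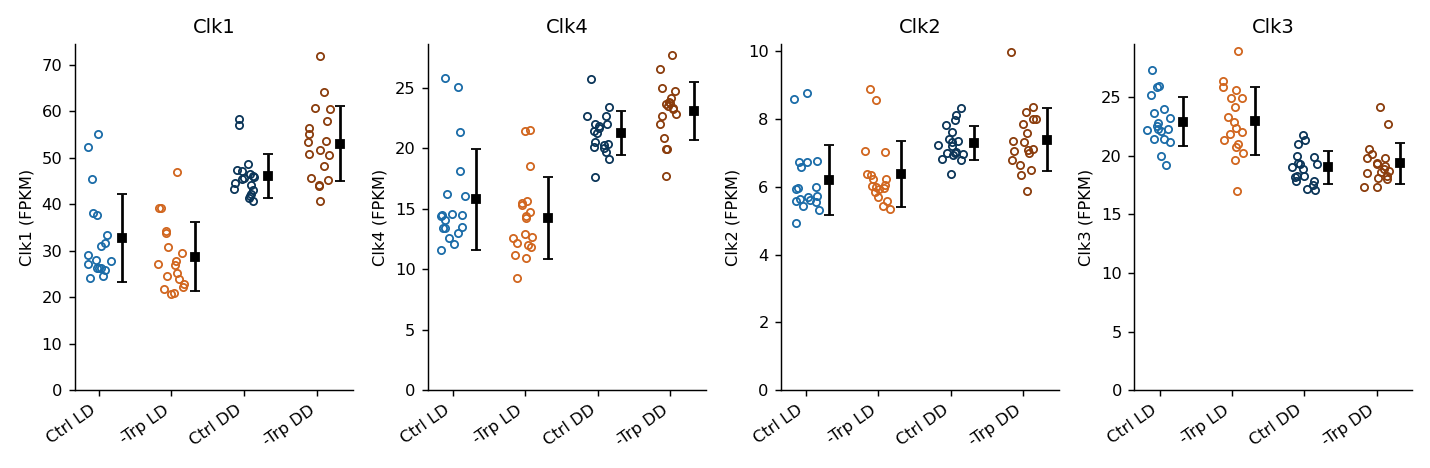
Clk1, Clk4, Clk2 and Clk3 in FPKM by group, with an open point for each of 18 libraries and a black square with bars for the mean ± SD. Clk1 and Clk4 are higher in both DD groups (Clk1 medians 45.6 and 52.5) than in the LD groups (28.6 and 27.1), apart from a few high LD libraries, and Clk3 is slightly lower in DD.

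Ctrl LD ZT8 replicate 1 and -Trp LD ZT0 replicate 1 were among the 3 highest LD libraries for each of the 3 kinases. Ctrl LD ZT8 replicate 1 had the highest Clk1 (55.1 FPKM) and Clk4 (25.8) of LD, against 24.03 and 25.9 for Clk1 in the other libraries of that time point. A list of 7 long noncoding RNAs known to stay in the nucleus (Malat1, Neat1, Meg3, Rian, Mirg, Miat and Snhg11), added after values were seen, was summed in each library. The sum was 432 to 1185 FPKM in Ctrl LD, 354 to 1038 in -Trp LD, 1537 to 2162 in Ctrl DD and 1472 to 2351 in -Trp DD, with no overlap between LD and DD. Within the 36 LD libraries it followed Clk4 with r = 0.89, Clk2 with r = 0.78 and Clk1 with r = 0.77. Clk3 had r = 0.47, Cirbp 0.01 and Rbm3 -0.02 (Pearson, log2 scale, libraries that share preparation and diet groups). Within the 36 DD libraries the values were 0.19, -0.46 and 0.29 for Clk4, Clk2 and Clk1. Those of Clk3, Cirbp and Rbm3 were -0.47, 0.11 and 0.21. The library highest in this sum in LD was also highest in Clk1 and Clk4. All 7 RNAs rose in DD by limma on both diets, where 37.8% (Ctrl diet) and 37.9% (-Trp diet) of all genes rose. The median log2 difference of the 7 was 1.85 and 2.08. Their part in the differences of the kinases was not tested.

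**Figure D3:**
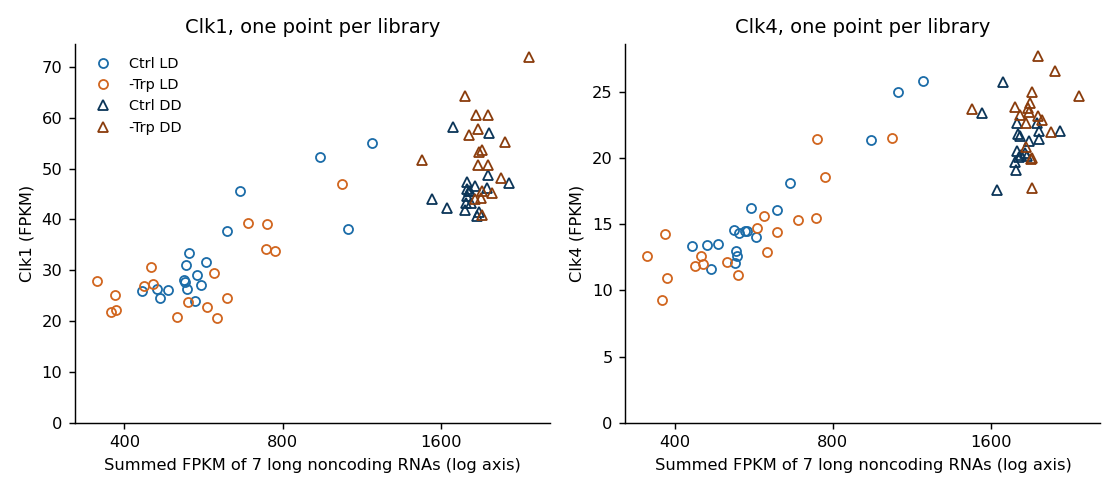
Clk1 (left) and Clk4 (right) in FPKM against the summed FPKM of 7 nuclear long noncoding RNAs on a log axis, with 1 point for each of 72 libraries, circles for LD and triangles for DD. The LD circles climb together (r = 0.77 for Clk1 and 0.89 for Clk4) towards the DD triangles, which form a cloud with little slope.

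Between the diets, no member passed the test in LD. Clk1 was at -0.16 ± 0.11, Clk4 at -0.12 ± 0.11 and Clk2 at 0.06 ± 0.07 (log2 difference of -Trp from Ctrl, SE), with adjusted p-values from limma of 0.564 to 0.821, where 1.11% of all genes passed (0.565% upwards and 0.544% downwards). In DD, Clk1 passed and the other 4 members did not. It was 1.15-fold higher on the -Trp diet, a log2 difference of 0.20 ± 0.06 (SE, adjusted p = 0.0386 by limma), where 13.4% of all genes passed in either direction, 7.22% upwards and 6.17% downwards. The 18 values of each diet overlapped widely, 40.6 to 58.3 FPKM on the Ctrl diet and 40.8 to 71.9 on the -Trp diet. The call was lost with no filter on low values (adjusted p = 0.0521), with 1 fit for all 72 libraries (0.124) and without any of 16 of the 36 libraries (0.0121 to 0.0665 over all 36). Clk4 was at 0.12 ± 0.05 (adjusted p = 0.0772 by limma), and at 0.14 with an adjusted p of 0.0378 without the 3 libraries that stand apart. Clk3 was at 0.02 ± 0.05 in LD and 0.03 ± 0.03 in DD (SE, adjusted p = 0.941 and 0.530 by limma). The diet comparisons and the light comparisons share libraries and are no independent views of one another.

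The diet difference of Clk1 had opposite signs in LD and DD, and the interaction of diet and light was 0.36 ± 0.13 (SE, adjusted p = 0.0617 by limma; 7.69% of all genes passed, 2.33% upwards and 5.36% downwards). The adjusted p was 0.0470 without the 3 libraries that stand apart and 0.0478 on FPKM as deposited, and it ranged from 0.0338 to 0.0980 with 1 library left out. Clk4 had an interaction of 0.24 ± 0.12 (adjusted p = 0.194). For Cirbp, Rbm3 and Clk2 the adjusted p-values from limma were 0.912, 0.353 and 0.817. Clk3 had an interaction of 0.02 ± 0.06 (SE, adjusted p = 0.894 by limma).

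**Figure D4:**
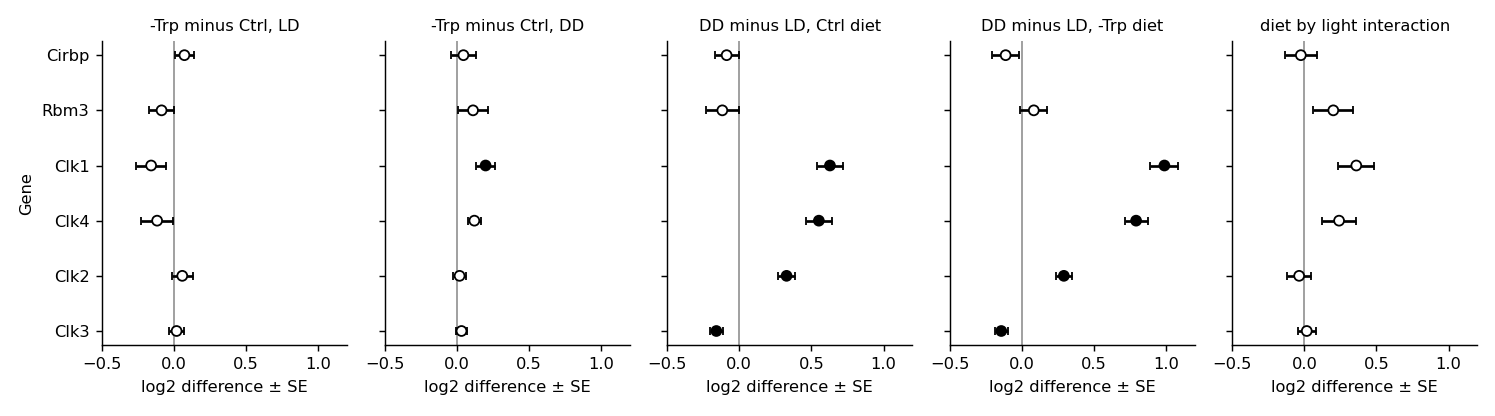
Log2 differences ± SE of the 5 members and Clk3 in 5 comparisons, each in its own panel with a line at 0, filled where the limma adjusted p was under 0.05. The filled points are Clk1, Clk4, Clk2 and Clk3 in both light comparisons and Clk1 in the diet comparison in DD (0.20 ± 0.06).

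By FPKM, a level per length, Cirbp had the highest median of the members in every group. Its mean over 72 libraries, 103 FPKM, was above 95.4% of 14425 expressed genes, followed by Rbm3 (65.4 FPKM), Clk1 (40.2), Clk3 (21.1), Clk4 (18.6) and Clk2 (6.81). Among neighbours in this order, Clk3 and Clk4 exchanged places between the schedules, with medians of 22.4 and 14.4 FPKM in Ctrl LD and 19.0 and 21.4 in Ctrl DD, and their ranges overlapped there. The ranges of Cirbp and Rbm3 also overlapped in each group.

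Cirbp and Rbm3 had r = 0.76 over the 36 LD libraries and 0.74 over the 36 DD libraries, and Clk1 and Clk4 had 0.82 and 0.73. Either cold-inducible gene with any of the 3 kinases had r between -0.24 and 0.15 in LD and between -0.27 and 0.50 in DD, where the highest value was that of Rbm3 with Clk4. Clk2 followed Clk1 and Clk4 in LD (0.66 and 0.78) and hardly in DD (0.20 and 0.15). These are Pearson correlations of log2(FPKM + 0.5), given as a description, over libraries that share time points and preparation.

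By the same measure over 72 libraries, after removing the mean of each schedule, the genes most like Cirbp among 13241 were Chpf2 (r = 0.88), Chid1 (0.86) and Txnrd3 (0.85). Those most like Rbm3 were Cirbp (0.75), Hif3a (0.72) and Slc2a4 (0.70). For Clk1 they were A330023F24Rik (0.85), a long noncoding RNA host gene, Rbm5 (0.84), a splicing regulator, and Pcgf6 (0.83). For Clk4 they were Ccnl2 (0.90), a cyclin tied to splicing, Lime1 (0.88) and Cecr5 (0.88), and for Clk2 Igflr1 (0.81), Akap8l (0.79) and Kcnt1 (0.79). For Clk2 and Clk4 the likeness was weaker in DD. Akap8l with Clk2 had r = 0.91 in LD against 0.47 in DD, and Lime1 with Clk4 had 0.94 against 0.52.

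Heat shock genes, which respond to temperature in the opposite sense, were taken as a list of 21. By JTK_CYCLE, 10 of the 21 were called in Ctrl LD and 14 in -Trp LD, against 0 in Ctrl DD and 2 in -Trp DD. These are 47.6%, 66.7%, 0% and 9.52% of the list, beside 7.11%, 7.42%, 4.92% and 1.42% of all rows, which are also the shares to set beside the rhythm counts of the lists that follow. Of those called, 8 and 14 had a lag of 12 h or later in LD. Cirbp itself had a lag of 12 h in Ctrl LD and 10 h in -Trp LD, and Rbm3 of 14 h and 12 h. This split therefore does not set the heat shock genes apart from the members. Hsph1, a chaperone of the HSP110 family, was at 125 ± 2.56 FPKM at ZT0 and 82.6 ± 2.98 at ZT12 in Ctrl LD, and at 145 ± 14.1 at ZT20 and 87.2 ± 2.94 at ZT12 in -Trp LD (SD, n = 3). Its lowest mean in both LD groups fell at ZT12, where that of Cirbp was highest. Over libraries, Cirbp and Hsph1 had r = -0.83 in LD and -0.58 in DD, and -0.85 and -0.82 without the 3 libraries that stand apart. Rbm3 and Hsph1 had r = -0.69 in LD and -0.63 in DD over all libraries, and -0.68 and -0.66 without those 3. The other heat shock genes compared in this way, Hspa8 and Hsp90aa1, were less strongly related. Cirbp had r = -0.50 and -0.53 with them in LD and -0.51 and -0.40 in DD. Rbm3 had r = -0.46 and -0.52 in LD and -0.47 and -0.50 in DD. Chordc1, Hspa1b, Cryab and Ahsa1 were the other heat shock genes with the smallest p-values in LD.

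**Figure D5:**
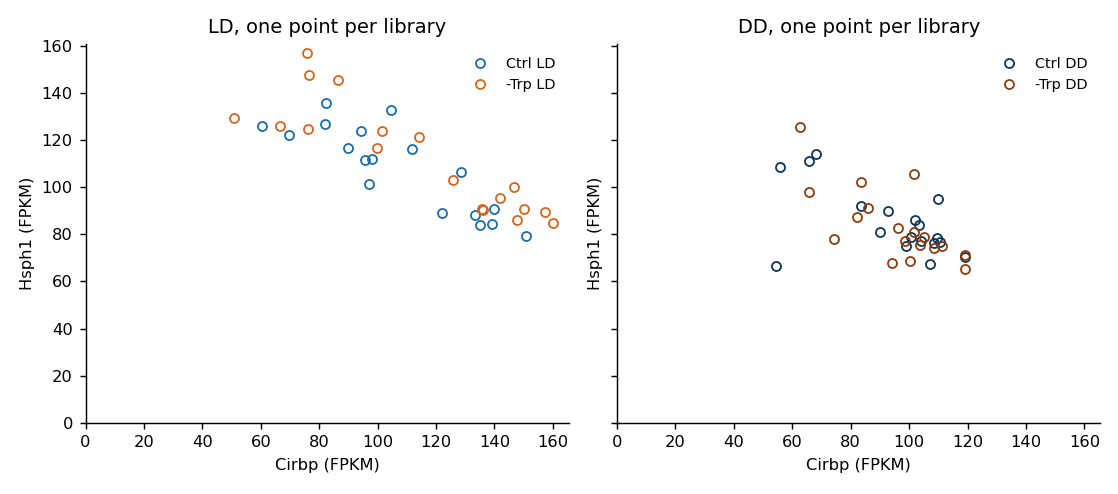
Hsph1 against Cirbp, both in FPKM, with 1 point per library, for LD on the left and DD on the right. High Cirbp goes with low Hsph1 in both panels (r = -0.83 and -0.58), and the point at 54.5 FPKM of Cirbp that lies off the cloud in DD is the Ctrl DD library with almost no Six6.

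In level, 17 of the 21 heat shock genes passed the limma test between DD and LD on each diet, 16 lower and 1 higher on the Ctrl diet and 15 lower and 2 higher on the -Trp diet. The share called, 81.0%, is close to the 78.8% and 79.6% of all genes. Their median log2 difference was -0.38 and -0.34, beside -0.02 over all genes on each diet. Hspe1 (-0.88 ± 0.05), Stip1 (-0.73 ± 0.06) and Ahsa1 (-0.62 ± 0.05) had the smallest adjusted p-values on the Ctrl diet. Between the diets, 0 of 21 passed in LD and 2 in DD, Hspa5 at 0.19 ± 0.06 and Hsp90ab1 at -0.12 ± 0.04.

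The list of 13 SR proteins, the substrates of CLK kinases, was mixed. Of these, 6 rose and 4 fell between LD and DD on the Ctrl diet, and 8 rose and 2 fell on the -Trp diet, 76.9% on each diet beside 78.8% and 79.6% of all genes, with medians of 0.07 and 0.24. Srsf5 (0.55 ± 0.05) and Srsf11 (0.59 ± 0.08) rose and Srsf3 (-0.32 ± 0.04) fell on the Ctrl diet. Between the diets in DD, where Clk1 was higher, Srsf7 (0.17 ± 0.05), Srsf3 (0.14 ± 0.04) and Tra2b (0.15 ± 0.05) rose, 3 of 13 (23.1%) beside 13.4% of all genes. By JTK_CYCLE, 2 were called in Ctrl LD and 4 in -Trp LD. Srsf5 was at 155 ± 6.37 FPKM at ZT4 and 93.2 ± 11.1 at ZT16 on the Ctrl diet (SD, n = 3). Tra2a was at 59.9 ± 4.39 at ZT0 and 35.9 ± 1.74 at ZT12 there. Under constant darkness, Srsf11 and Srsf5 were called on the Ctrl diet (15.4% of the list) and Srsf11 on the -Trp diet (7.69%). The rhythm of Srsf11 differed between the diets in DD (0.39, adjusted p = 0.000467 by limma). That of Srsf5 differed between the light schedules on the -Trp diet (0.54, adjusted p = 3.03e-07). On the Ctrl diet Srsf5 did not pass (adjusted p = 0.0643).

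Of 14 other kinases near the CLK family (Clk3 and the SRPK, DYRK, HIPK and PRP4 kinases), 13 were tested. Between LD and DD, 11 rose and 1, Clk3, fell on the Ctrl diet, and 10 rose and 1 fell on the -Trp diet, with medians of 0.53 and 0.37. The shares called were 92.3% and 84.6%, beside 78.8% and 79.6% of all genes. Hipk2 (1.80 ± 0.11 and 1.54 ± 0.14), Dyrk2 (1.04 ± 0.07 and 0.99 ± 0.09) and Prpf4b (0.97 ± 0.05 and 1.14 ± 0.06) had the smallest adjusted p-values. Between the diets, 0 of 13 passed in LD and 1, Dyrk1a at -0.14 ± 0.04, passed in DD. Hipk1, Dyrk2 and Srpk1 were called rhythmic in Ctrl LD, Srpk1 in -Trp LD and none in DD.

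Of 9 genes named in work on mild cooling (Rbmx, Rbmxl1, Sp1, Creb1, Bdnf, Ntrk2, Plcg1, Rtn3 and Trpv4), 8 were tested. Between LD and DD, 5 rose and 2, Rtn3 and Rbmxl1, fell on each diet (87.5% called, beside 78.8% and 79.6% of all genes), with Sp1 (0.78 ± 0.04 and 0.81 ± 0.05), Plcg1 (0.69 ± 0.03 and 0.59 ± 0.05) and Rbmx (0.45 ± 0.03 and 0.47 ± 0.05) at the smallest adjusted p-values. Rtn3, whose translation RBM3 is known to raise, was at -0.04 ± 0.03 between the diets in LD (adjusted p = 0.588 by limma). Rbmxl1 rose by 0.14 ± 0.05 on the -Trp diet in DD. Rbmx and Creb1 were called rhythmic in both LD groups and none of the 9 was in DD.

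Core clock genes gave a time frame in LD and hardly any in DD. By JTK_CYCLE, 9 of 14 were called rhythmic in Ctrl LD and 4 in -Trp LD, against 0 in Ctrl DD and 1, Ciart, in -Trp DD. Dbp, a clock output factor, was at 36.2 ± 3.12 FPKM at ZT12 and 16.2 ± 0.707 at ZT20 in Ctrl LD (SD, n = 3), with its highest mean at the same time point as Cirbp. Cirbp and Dbp had r = 0.76 over the 36 LD libraries and 0.82 over the 36 DD libraries. In level, 9 of 14 rose and 2 fell between LD and DD on the Ctrl diet and 8 rose and 5 fell on the -Trp diet, 78.6% and 92.9% beside 78.8% and 79.6% of all genes. Per1 rose by 0.21 on the -Trp diet in LD and Cry2 fell by 0.14 in DD.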

How the data were processed

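FPKM values for 24883 genes were computed by the authors with TopHat and Cufflinks on mm10 after Trimmomatic, per the labels and the methods of the study, and were deposited in 4 tables, each named for 1 group. In the column order used here, each table holds libraries of 2 groups. Versions are not given in the sources used here. The files hold no read counts, so depth is unknown, and low values gave a relative depth of 0.697 to 1.24 of the median library. Columns were read in the order of the supplementary table of the study, with the names as an alternative.

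FPKM was scaled by median-of-ratios factors (0.902 to 1.07), and genes whose mean reached 0.5 FPKM were kept. Levels and rhythm differences (cosine and sine terms of 24 h) were tested on log2(FPKM + 0.5) with limma 3.58.1 in R 4.3.3 and Benjamini-Hochberg adjustment at 0.05, with time point as a covariate of the level tests. Fold changes are on this scale, which understates changes of low genes. Rhythms used JTK_CYCLE, rewritten in Python 3.11.15, on deposited FPKM. The methods were tested on simulated data. The labels do not say more of the replicates than separate samples, so p-values measure the spread between these samples.

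The members and the gene lists were chosen with earlier results of these data known. The list of nuclear long noncoding RNAs, and the alternative without the 3 libraries that stand apart, were chosen after values were seen. All 5 members and Clk3 are covered in each limma comparison, some of them as a group or a range. Named beside them are up to 3 genes of each list with the smallest p. The 3 genes most like each member were taken among those with a mean of at least 1 FPKM. Alternatives were other pseudocounts (0.1 and 1), FPKM as deposited, other filters, a replicate block, the columns as named, 1 fit for all 72 libraries and leaving out each library.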

Additional observations from a re-analysis of the deposited data

How the results depend on the processing

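The order of the columns decided most results. With the columns as named, 3 of 5 members passed between the diets in LD and 4 in DD. Between LD and DD on the Ctrl diet 0 passed, and in the interaction 3 did. Rhythm differences passed for 2 members (diets in LD), 1 (diets in DD) and 5 (light, Ctrl diet). Rhythms were then called for 0 members in -Trp LD (2.48% of rows) and 2 each in Ctrl DD (27.6%) and -Trp DD (6.68%). Log2 differences turned between the diets in LD (Cirbp -0.0451, Rbm3 0.0522, Clk1 0.59, Clk4 0.56) and in DD (Clk1 -0.64, Clk2 -0.17, Clk4 -0.44), between LD and DD on the -Trp diet (Cirbp 0.16, Clk1 -0.71, Clk2 -0.33, Clk4 -0.57) and in the interaction (Cirbp 0.24, Clk1 -1.23, Clk4 -0.99995). Among all genes, 819 of 14431 then passed between LD and DD on the Ctrl diet, against 11368 of 14427 in the order used here. Between the diets in LD 9482 of 14480 passed, against 157 of 14148. Between the diets in DD 10178 of 14362 then passed, and in the interaction 11192 of 14428. Rhythm differences passed for 7521 of 14480 genes (diets in LD), 5001 of 14362 (diets in DD) and 10460 of 14431 (light, Ctrl diet). The member counts are to be read beside these counts of all genes.

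Between the diets in DD, 0 members passed with no filter (1667 of 21303 genes) or 1 fit for all 72 libraries (2250 of 14530). Without the 3 libraries that stand apart 2 passed (2589 of 14500 genes), and 0 to 2 passed with 1 library left out. In the interaction 1 passed on FPKM as deposited (853 of 14425 genes) and 1 without those 3 libraries (1309 of 14408). With 1 library left out 0 to 1 passed there, and Cirbp ranged from -0.0637 to 0.0224. On FPKM as deposited Rbm3 was at -0.00937 between LD and DD on the -Trp diet. The rhythm difference of Cirbp between LD and DD on the -Trp diet passed (1 member) with a pseudocount of 0.1 (12 of 14415 genes). It also passed with a mean of at least 1 FPKM (7 of 13226) and 1 fit for all libraries (40 of 14415). With 1 library left out, 0 to 1 members passed there. After adjustment over all rows, rhythms were called for 1 member in Ctrl LD (21 of 24883 rows) and 0 in Ctrl DD (0 of 24883). In Ctrl DD, 0 were called on scaled FPKM (1220 of 24883 rows) and by a cosine fit (1198 of 14543 genes). With a replicate block in that fit 0 were called (1062 of 14543), and 0 to 1 by JTK_CYCLE with 1 library left out. In -Trp DD 1 was called by the cosine fit (322 of 14503 genes) and 0 to 1 by JTK_CYCLE with 1 library left out. The cause of these changes was not tested.

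The labels give no source for the replicate numbers, and not every same-numbered pair correlated over 0.1, so the numbers were not taken to pair the libraries. Over 18 pairs, the deviations of same-numbered libraries had a median r of -0.00043 between the diets in LD, 0.17 between the diets in DD, -0.02 between Ctrl LD and Ctrl DD, and 0.13 between -Trp LD and -Trp DD. Of these pairs 4, 12, 4 and 10 were over 0.1, and 5, 11, 4 and 15 libraries correlated best with their own number. The values in the second and the fourth of these comparisons hint at a structure shared by number there, which comes from the data and not from the design. With the replicate block no level or rhythm difference call of a member changed, and 155, 1825, 11343, 11441 and 1145 genes passed in the 5 level comparisons. Over all settings other than leaving out 1 library, 361 recomputed values kept their direction and side of the threshold, 19 came to pass it, 5 no longer passed and 15 turned.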
